A study of Homo sapiens with 16 samples.

Results

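The 56 genes described here encode proteins of the cytosolic ribosome, 34 of the large subunit (the RPL and RPLP genes) and 22 of the small subunit (the RPS genes and RPSA). They are the rows of the deposited gene table whose symbol is on a list of 56 ribosomal protein symbols, out of 26475 symbols in all. The rows were matched by symbol, but the list was drawn up with earlier results of these data known and is not all of the ribosome: 23 other cytosolic ribosomal protein genes are given separately. All 56 passed the filter on low counts that left 16012 genes for testing. Their lowest estimated count in any library was 8594, so counting error was small for each of them.

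The libraries were made from human A375 MA2-Luc melanoma, an established melanoma line with an activating BRAF mutation, grown as lung metastases in immunodeficient NSG mice. Each mouse received 250000 cells behind the eye, per the labels. The 16 libraries form 4 groups of 4: ketogenic diet with BRAF-kinase and MEK 1/2 inhibitors, high fat diet with the same inhibitors, ketogenic diet with none, and high fat diet with none. The inhibitors were given by oral gavage 3 times a week for 5 weeks. The labels give no vehicle for the untreated groups, so that inhibitors and gavage cannot be told apart. They include no standard chow group either, so each diet was compared only with the other. All libraries come from 1 cell line, and beyond calling the 4 libraries of a group biological replicates the labels do not say whether each is 1 mouse.

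Ribosomal proteins assemble with ribosomal RNA in the nucleolus and are made in near-equal amounts, because a ribosome holds one copy of nearly every one. Their mRNAs carry a 5′ terminal oligopyrimidine tract (TOP), a cytosine at the transcription start within an unbroken run of C and T, through which mTOR and the RNA-binding protein LARP1 control translation. RAF-MEK-ERK signalling, the pathway the 2 inhibitors block, is known to feed into the same translation machinery. The libraries measure mRNA levels, not translation.

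The start site is shown for genes at both ends of the responses reported below, because the TOP tract is what the family shares in sequence. Each line gives 15 bases before and 15 bases after the RefSeq start (GRCh38.p14), 5′ to 3′ on the gene's strand, with capitals marking a run of at least 5 C or T that covers the first transcribed base. RPL12 (chr9:127451392-127451421, minus strand), RPL31 (chr2:101002274-101002303, plus), RPS18 (chr6:33272060-33272089, plus), RPS3 (chr11:75399503-75399532, plus) and RPL4 (chr15:66504841-66504870, minus) were among the genes most lowered by the inhibitors on the high fat diet. RPS6 (chr9:19380222-19380251, minus) was the most abundant, and RPSA (chr3:39406705-39406734, plus) and RPS15 (chr19:1438381-1438410, plus) were the least changed.
RPL12: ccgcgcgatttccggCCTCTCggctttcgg
RPL31: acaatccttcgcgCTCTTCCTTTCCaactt
RPS18: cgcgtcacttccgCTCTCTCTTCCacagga
RPS3: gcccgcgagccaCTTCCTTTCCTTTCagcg
RPL4: tacagcgggagtggtaagcacttccttttc
RPS6: aagcggaagttggCCCTCTTTTCCgtggcg
RPSA: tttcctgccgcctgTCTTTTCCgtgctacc
RPS15: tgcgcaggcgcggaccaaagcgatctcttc

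A start table entry was found for 48 of the 56 genes. A run of at least 5 C or T covered the start in 39 of them (81.3%), against 11.9% of the 27305 genes in the table, and a run of at least 10 in 33 (68.8%), against 3.66%. The same count for A and G runs was 4 of 48 (8.33%), against 16.5%. RPL4 and RPS15 had no such run at the annotated start. The 39 genes with a run and the 9 without had the same median log2 fold change under inhibitors on the high fat diet, -0.45 in each set. The runs were read on the gene's strand alone, at annotated starts rather than starts measured in these cells.

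The 56 genes lie on 18 chromosomes, 8 of them on chromosome 19. Their mean level over all libraries ran between 239 CPM (estimated counts scaled to a common library total with TMM) for RPS28, which lies at the mRNA exit, and 2443 CPM for RPS6, the S6 kinase substrate. RPLP0 (2076) and RPL13A (2054) followed RPS6, and RPS15 (290) and RPL34 (323) were next to RPS28. Per kilobase of coding sequence the range was narrower, between 581 and 3759 CPM with a median of 1777. RPLP1, an acidic protein of the stalk that recruits translation factors, was highest on that scale (3759), followed by RPS27 (3567), RPL13A (3373) and RPS6 (3271). The summed large subunit genes were 1.51 to 1.64 times the summed small subunit genes in each library, a ratio that did not separate the groups.

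**Figure D1:**
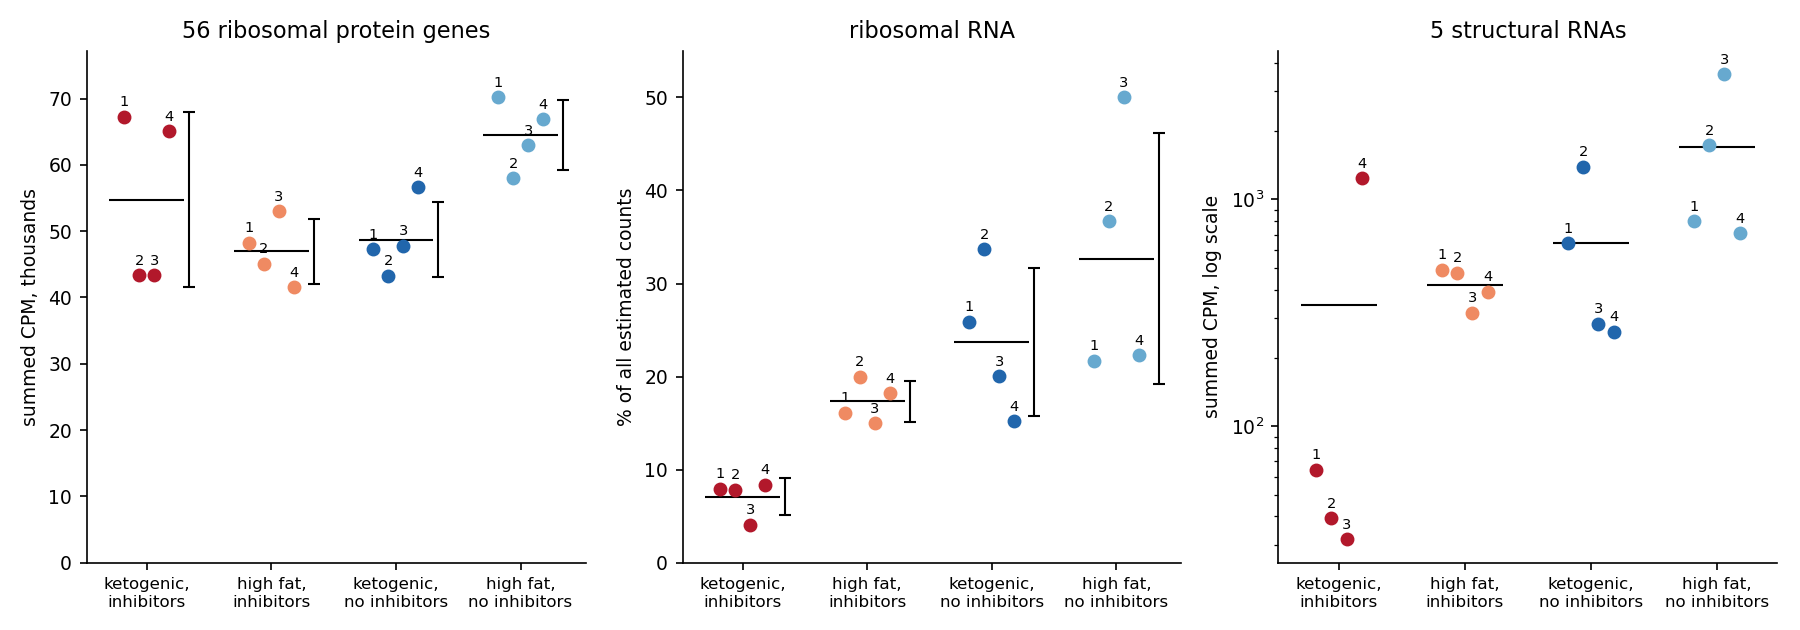
Summed CPM of the 56 ribosomal protein genes (left), ribosomal RNA as a percentage of all estimated counts (middle) and summed CPM of 5 structural RNAs on a log axis (right), with 1 point per library, its replicate number above it, a line at the group mean and, in the first 2 panels, a bar of 1 SD beside it. In the left panel ketogenic inhibitor libraries 1 and 4 lie at 67250 and 65105 CPM with the untreated high fat libraries, and libraries 2 and 3 lie at 43336 and 43360 CPM.

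As a family the genes were highest in CPM in untreated metastases on the high fat diet. Their summed level was 67250, 43336, 43360 and 65105 CPM in the 4 ketogenic inhibitor libraries, and 48263, 45096, 53033 and 41540 CPM in the 4 high fat inhibitor libraries. It was 47314, 43265, 47780 and 56610 CPM in the 4 untreated ketogenic libraries, and 70188, 57956, 62946 and 66876 CPM in the 4 untreated high fat libraries. The lowest untreated high fat library stood above every high fat inhibitor and every untreated ketogenic library. The group with both ketogenic diet and inhibitors was split into 2 high and 2 low libraries. The mean was 54763 ± 13210 CPM in the ketogenic inhibitor group, 46983 ± 4879 CPM in the high fat inhibitor group, 48742 ± 5623 CPM in the untreated ketogenic group and 64491 ± 5267 CPM in the untreated high fat group (SD, n = 4 each). Among single genes, 52 of 56 had their highest mean in the untreated high fat group, and the other 4 in the ketogenic inhibitor group.

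Libraries differed in ways other than the group. Libraries held 37099876 to 77251525 estimated counts, and 32237264 to 51214988 outside ribosomal RNA. Ribosomal RNA took 4.10 to 8.37% of the counts in the ketogenic inhibitor group and 15.01 to 19.97% in the high fat inhibitor group. It took 15.2 to 33.7% in untreated ketogenic libraries and 21.7 to 50.01% in untreated high fat libraries. The ranges with and without inhibitors were apart on each diet. The ranges of the diets were apart under inhibitors but overlapped without them, and no test was run on these shares. Exact 95% binomial intervals of these shares were at most 0.025 percentage points wide and cover counting error only. Of 12 melanoma lineage markers, 7 stood at 10 CPM or more in every group. Of 12 leukocyte markers, 8 stayed under 1 CPM in every group. LYZ (lysozyme) and CORO1A (coronin) were lowest in the untreated high fat group, where the ribosomal protein genes were highest in CPM. LYZ averaged 3.45 CPM in the ketogenic inhibitor group, 3.73 CPM in the high fat inhibitor group, 3.61 CPM in untreated ketogenic libraries and 0.550 CPM in untreated high fat libraries. CORO1A averaged 4.78, 5.28, 6.05 and 0.808 CPM in those groups, in that order. CD68, the 1 leukocyte marker at 10 CPM or more in every group, was instead highest in the untreated high fat group. It averaged 46.6, 34.4, 46.4 and 53.6 CPM in the same order. The sum of the 12 leukocyte markers averaged 55.8, 45.7, 57.2 and 56.2 CPM.

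With counts of ribosomal RNA left out of the total, the 56 genes took 6.86 ± 1.52% in the ketogenic inhibitor group and 5.92 ± 0.560% in the high fat inhibitor group. They took 6.20 ± 0.678% in untreated ketogenic libraries and 8.26 ± 0.588% in untreated high fat libraries (SD, n = 4 each). The order of the groups was the same as on the CPM scale. As a share of all counts, ribosomal RNA included, the order changed and the ketogenic inhibitor group was highest. That share was 6.36 ± 1.34% in the ketogenic inhibitor group and 4.91 ± 0.573% in the high fat inhibitor group. It was 4.77 ± 0.999% in untreated ketogenic libraries and 5.59 ± 1.40% in untreated high fat libraries.

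On the high fat diet, ribosomal protein mRNAs were lower with inhibitors than without. With inhibitors, 33 of the 56 genes fell and none rose at an edgeR adjusted p under 0.05, with 40 at an unadjusted p under 0.05. Over all genes tested 42.3% passed in either direction with 20.6% higher and 21.7% lower, so the 58.9% of these genes that fell exceeds that share. All 56 estimates were negative, with a median log2 fold change of -0.43, against -0.03 over all genes. Of the 23 other cytosolic ribosomal protein genes, 21 estimates were negative and 2 positive. In 33 genes (58.9%) every inhibitor library lay below every untreated one, against 22.2% of all genes lower and 22.5% higher. Of the large subunit genes 23 of 34 fell, and of the small subunit genes 10 of 22. In bulk RNA, fewer cells of a type and less RNA per cell cannot be told apart.

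RPL12 (chr9:127447674-127451405, minus strand, GENCODE 29 on GRCh38), which with RPLP0 forms the base of the stalk, changed most. It had 720, 678, 698 and 564 CPM in high fat inhibitor libraries, against 1455, 1168, 1396 and 1728 CPM in untreated high fat libraries. The highest library with inhibitors was far below the lowest without, and the groups did not overlap. Its log2 fold change was -1.11 (SE 0.19, edgeR adjusted p = 0.000356), and this call held under all 8 fits without one library and all 12 other settings. RPL4 (chr15:66498015-66524532, minus strand), which reaches into the wall of the peptide exit tunnel, had 1515, 1361, 1340 and 1156 CPM with inhibitors, against 2161, 2027, 2209 and 1950 CPM without. Again the groups were apart, with a log2 fold change of -0.64 (SE 0.15, edgeR adjusted p = 0.00309).

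RPS3, at the mRNA entry, had 1286, 1214, 1288 and 1077 CPM with inhibitors, against 2236, 1695, 1795 and 1867 CPM without. RPS2, its neighbour at the entry, had 1777, 1716, 1716 and 1404 CPM, against 2907, 2314, 2415 and 2354 CPM. Neither gene's groups overlapped, with log2 fold changes of -0.64 and -0.60 (SE 0.16 and 0.15, edgeR adjusted p = 0.00433 and 0.00439). RPS3A, near the mRNA exit, fell by 0.51 on the log2 scale (SE 0.15, edgeR adjusted p = 0.0118), and RPS6 fell by 0.51 (SE 0.15, edgeR adjusted p = 0.0135). RPS6 averaged 2115 ± 211 CPM with inhibitors and 3007 ± 267 CPM without (SD, n = 4 each).

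The 5S particle proteins RPL5 and RPL11, which outside the ribosome bind the p53 ligase MDM2, fell too. RPL5 had 460, 462, 467 and 418 CPM with inhibitors, against 606, 549, 607 and 619 CPM without, a log2 fold change of -0.40 (SE 0.11, edgeR adjusted p = 0.00906). RPL11 had 1037, 890, 1158 and 808 CPM, against 1538, 1190, 1408 and 1388 CPM, a log2 fold change of -0.50 (SE 0.17, edgeR adjusted p = 0.0277). For both genes every treated library was below every untreated one. Of the stalk, RPLP0 (log2 fold change -0.35, edgeR adjusted p = 0.0407) and RPLP2 (-0.41, adjusted p = 0.0445) passed narrowly, and RPLP1 (-0.33, adjusted p = 0.126) did not.

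RPL10, which is added late in the assembly of the large subunit, fell by 0.50 on the log2 scale (SE 0.16, edgeR adjusted p = 0.0192). RPL13A, also part of an interferon-induced translation silencing complex, fell by 0.54 (SE 0.18, adjusted p = 0.0241). RPS19, mutated in Diamond-Blackfan anaemia, fell by 0.49 (SE 0.18, adjusted p = 0.0346), and RPL22 fell by 0.38 (SE 0.14, adjusted p = 0.0376). RPS14, the gene lost in 5q- syndrome, did not pass with a log2 fold change of -0.30 (adjusted p = 0.163). Nor did RPL38, RPS27 and RPS28, with -0.33, -0.41 and -0.38 (adjusted p = 0.127, 0.136 and 0.0818).

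At the other end, RPS15, a head protein needed for export of the small subunit precursor, had 292, 279, 288 and 253 CPM with inhibitors, against 358, 290, 286 and 276 CPM without. Its groups overlapped, with a log2 fold change of -0.12 (SE 0.13, edgeR adjusted p = 0.484). RPSA, also described as a laminin receptor, had 1225, 1241, 1393 and 1213 CPM, against 1580, 1367, 1477 and 1235 CPM. It too overlapped, with a log2 fold change of -0.16 (SE 0.13, adjusted p = 0.328). High fat inhibitor library 3 was the highest of its group for RPSA, and in that library 54 of the 56 genes lay above the mean of its mates, by a median of 0.27 on the log2 scale.

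**Figure D2:**
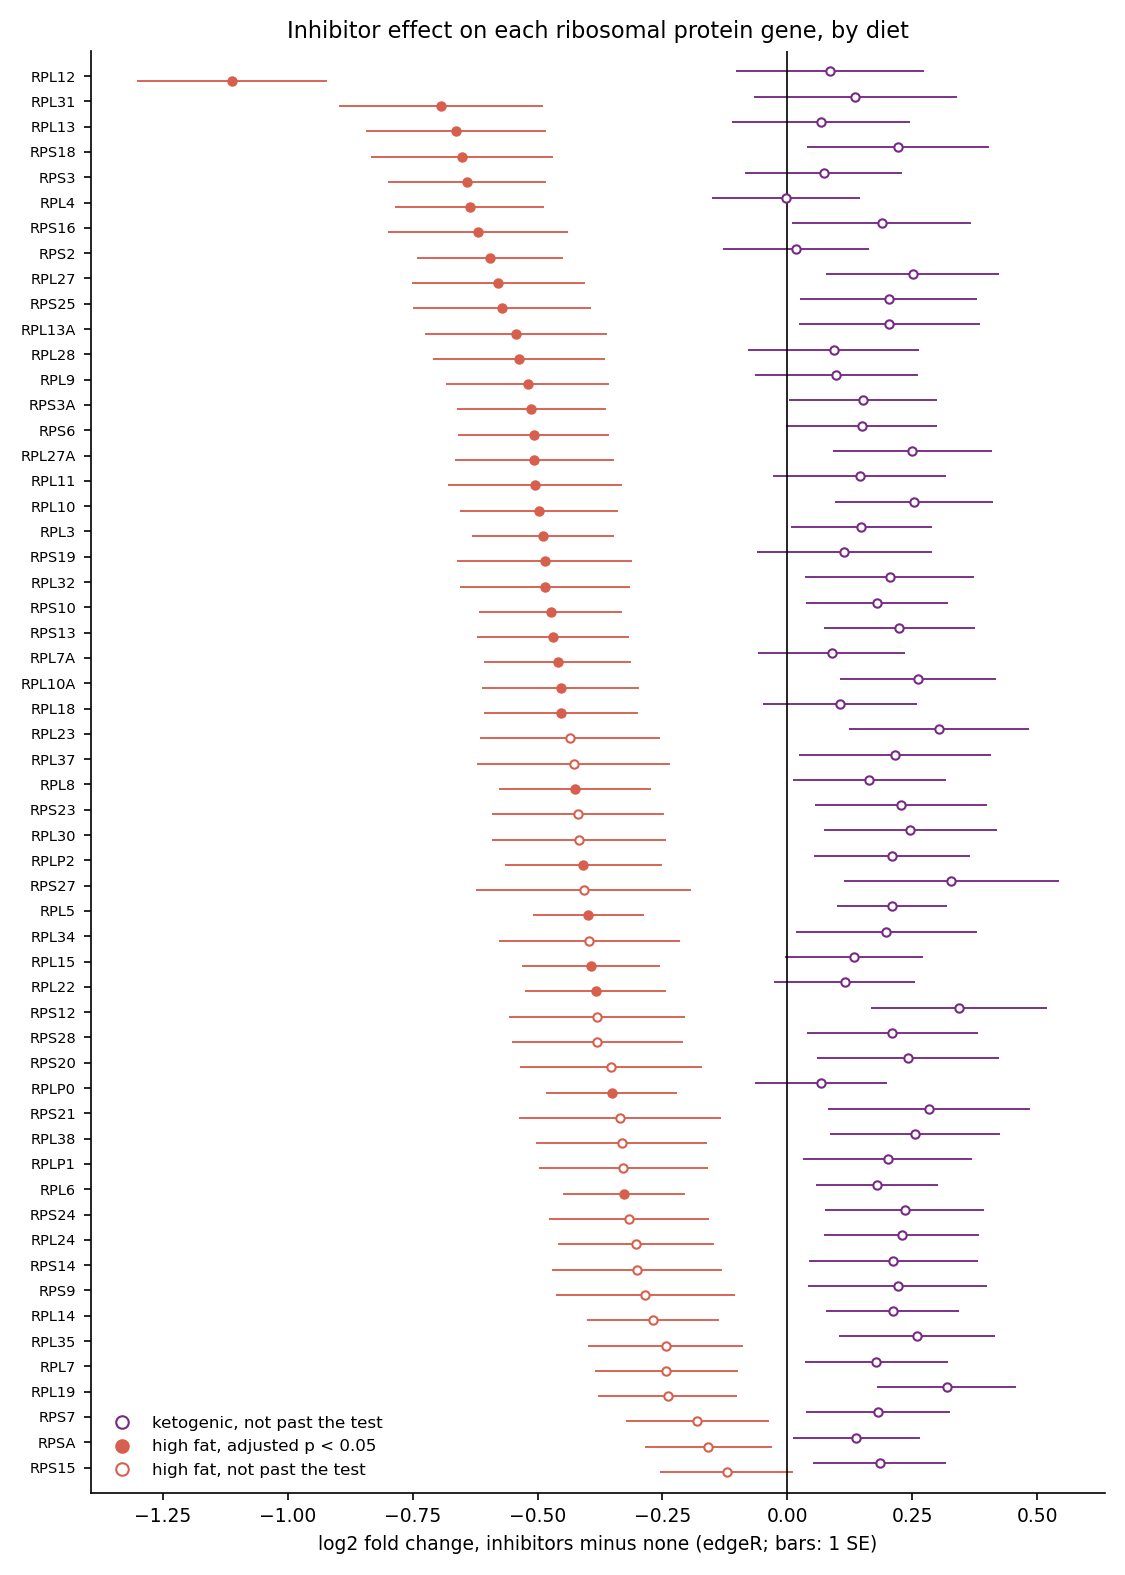
log2 fold change of each of the 56 genes, inhibitors minus none, on the ketogenic diet (purple) and on the high fat diet (red), with bars of 1 SE and filled points for an adjusted p under 0.05. On the high fat diet all points lie left of 0 with 33 filled, between -1.11 for RPL12 and -0.12 for RPS15, and on the ketogenic diet none is filled.

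The count of 33 depended on the fit. It was 1 when libraries were scaled by their total alone, a setting that moved the median of all genes to 0.25, and relative to the median of all genes the 56 genes stood at -0.41, against -0.40 with TMM scaling. With the log2 ribosomal RNA share as a covariate 15 genes fell, and without high fat inhibitor library 4, high fat inhibitor library 2 or untreated high fat library 1 the counts were 14, 21 and 17. The counts of these refits are given without the share of all genes that each fit called.

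Markers of other cell types moved beside this comparison. Summed levels of 8 endothelial markers were 71.9 to 82.3 CPM with inhibitors and 16.8 to 35.8 CPM without. Nearly all of that was KDR, a VEGF receptor (means of 75.1 and 21.8 CPM), and the other 7 markers stayed under 1 CPM in every group, with EMCN at 0 in the high fat inhibitor group and ERG and CDH5 at 0 in the untreated high fat group. Summed levels of 8 erythroid and plasma markers were 35.2 to 70.9 CPM with inhibitors and 6.605 to 8.29 CPM without. Most of that difference was TTR, a plasma transport protein (means of 42.8 and 1.31 CPM), the next being SERPINA1 (9.17 and 5.76 CPM), and the other 6, globins and ALAS2 among them, stayed under 1 CPM in every group. Summed levels of 8 fibroblast markers were 41.9 to 70.6 CPM with inhibitors and 109.7 to 132 CPM without, with none under 1 CPM in every group. That sum followed ACTA2 (16.3 and 59.1 CPM) and FBLN1 (21.9 and 49.8 CPM), whereas 5 of the 8 estimates were positive, the median log2 fold change was 0.35 and COL3A1 rose by 2.08 (SE 0.56, edgeR adjusted p = 0.00817). Of 7 leukocyte markers tested, LYZ and CORO1A rose by 2.74 and 2.72 on the log2 scale and CD68 fell by 0.64 (edgeR adjusted p = 6.51e-05, 7.14e-05 and 0.0227). Of the lung epithelial list 1 marker was tested, AGER, and it fell by 1.02 (SE 0.21, edgeR adjusted p = 0.00156). Their part in the result was not tested, and the sources used here do not give how mouse reads were treated.

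On the ketogenic diet no ribosomal protein gene passed the test. With inhibitors, 0 of 56 rose and 0 fell (edgeR adjusted p under 0.05), where 0.856% and 0.887% of all genes did, 1.74% together. At an unadjusted p under 0.05 there was 1, RPL19, and DESeq2 and limma voom also called 0. The estimates ran between -0.0023 for RPL4 and 0.34 for RPS12, with a median of 0.20, against 0.01 over all genes. In 0 genes were the groups apart, against 5.26% of all genes higher and 5.01% lower. RPL19, which forms a bridge between the subunits, had 1327, 922, 945 and 1485 CPM with inhibitors, against 917, 885, 884 and 1067 CPM without. Libraries 1 and 4 were above every untreated library and libraries 2 and 3 within their range (log2 fold change 0.32, SE 0.14, edgeR adjusted p = 0.233). RPS12, in the beak of the small subunit, had 731, 471, 467 and 772 CPM, against 454, 433, 470 and 567 CPM, and showed the same split (0.34, SE 0.18, adjusted p = 0.308).

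That split ran through the whole family. Ketogenic inhibitor libraries 1 and 4 both stood above libraries 2 and 3 in 56 of 56 genes. The median log2 distance of a gene to the mean of its group mates was 0.47 in library 1, 0.40 in library 4 and -0.43 in both others, whereas the medians over all genes tested lay between -0.04 and 0.02 in these libraries. Library 1 reached the range of untreated high fat libraries in 54 genes and library 4 in 48, against 1 gene each for libraries 2 and 3. The widest gaps of library 1 were at RPL12 (1243 CPM, mates 650 to 1016), RPL28 and RPL37. Those of library 4 were at RPS19 (865 CPM, mates 451 to 680), RPL35 and RPS27.

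The 2 high libraries differed from each other. RPS6 was 3184 CPM in library 1 and 2627 CPM in library 4, whereas RPLP0 was 2116 and 2750 CPM and RPSA 1368 and 1879 CPM. Ribosomal RNA was 7.98 and 8.37% in libraries 1 and 4, against 7.87 and 4.10% in libraries 2 and 3, so 1, 2 and 4 were alike in that share. Within the group, library 4 alone stood apart in 5 short structural RNAs (RN7SL1, RN7SL2, RN7SK, RMRP and RPPH1), with 1239 CPM against 64.4, 39.3 and 31.7 CPM in libraries 1, 2 and 3. Libraries of the other groups had 261 to 3571 CPM, so library 4 lay in their range and libraries 1, 2 and 3 below it. The ratio of 18S to 28S counts was 0.519 in library 4, against 0.111 to 0.155 in its group mates. Without libraries 1 and 4 the median log2 fold change on the ketogenic diet was -0.15 in place of 0.20, and again 0 genes passed. As libraries 1 and 4 were the 2 highest of the group, leaving them out had to lower this median. Without library 1 alone the median was 0.08. The direction on this diet thus depends on whether both libraries are included, and what sets them apart was not tested.

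**Figure D3:**
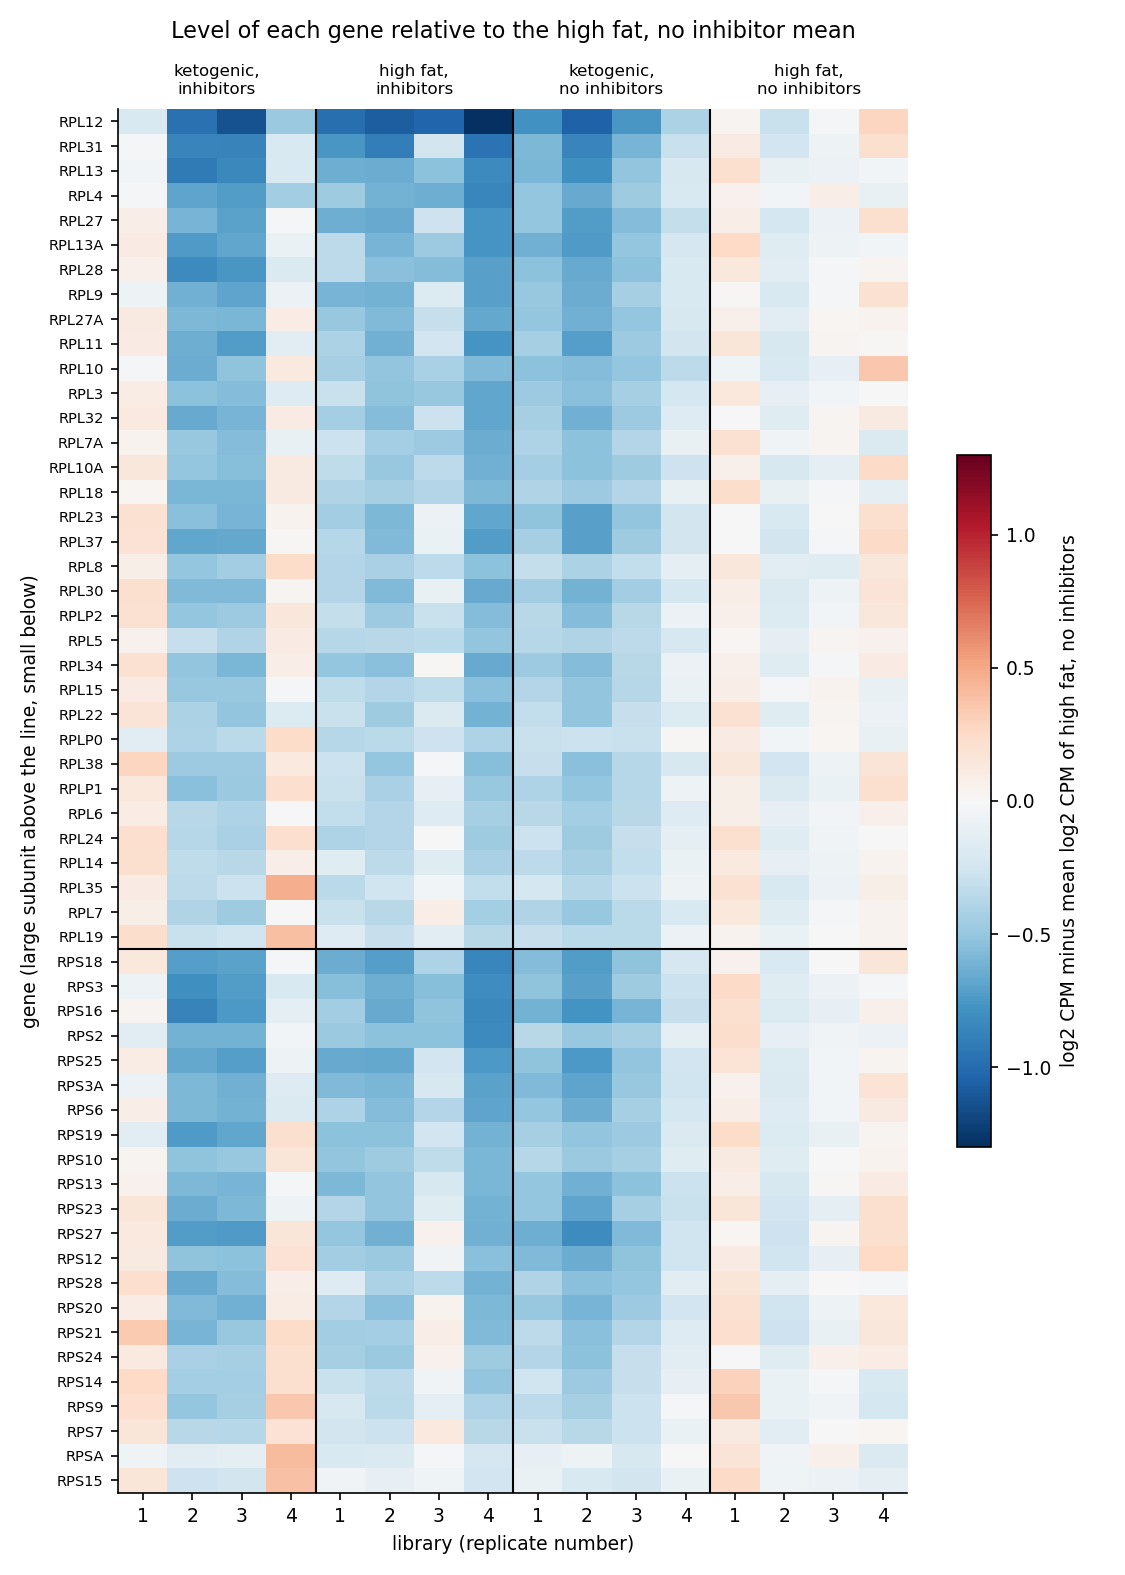
log2 CPM of each gene in each library minus its mean log2 CPM in the 4 untreated high fat libraries, with large subunit genes above the line and small subunit genes below, ordered by the inhibitor effect on the high fat diet. Ketogenic inhibitor library 1 reaches the range of the untreated high fat libraries in 54 genes and library 4 in 48, RPL12 and RPL4 being below it in library 4, and libraries 2 and 3 are below it in nearly every row.

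Without inhibitors, ribosomal protein mRNAs were lower on the ketogenic than on the high fat diet, and a few genes passed the test. In untreated metastases 6 of 56 genes fell on the ketogenic diet and none rose (edgeR adjusted p under 0.05), or 10.7%. Of all genes tested edgeR called 5.51% lower and 7.99% higher, 13.5% together. The count of 6 by itself thus does not set these genes apart. DESeq2 called 26 of the 56, limma voom 46 and scaling by library total 0. Those 3 counts are given without the share of all genes that each fit called. All 56 estimates were negative and 41 had an unadjusted p under 0.05, with a median log2 fold change of -0.41, against -0.02 over all genes. In 31 genes (55.4%) every ketogenic library lay below every high fat library, against 12.2% of all genes lower and 13.3% higher. This comparison and the inhibitor comparison on the high fat diet share the untreated high fat libraries, so the 2 sets of values are not independent.

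The 6 genes were RPL12, RPL10, RPS3, RPS3A, RPS13 and RPS16. RPL12 had 827, 686, 840 and 1070 CPM on the ketogenic diet, against 1455, 1168, 1396 and 1728 CPM on the high fat diet (log2 fold change -0.75, SE 0.19, edgeR adjusted p = 0.0173). RPS3A had 947, 875, 1002 and 1175 CPM, against 1462, 1235, 1373 and 1588 CPM (-0.50, SE 0.15, adjusted p = 0.0360). In both genes the groups were apart, with ketogenic library 4 the nearest to the high fat range. RPS16, whose tail reaches the P site, had a log2 fold change of -0.57 and RPS13 one of -0.49 (adjusted p = 0.0441 and 0.0435). RPSA was least changed, with 1304, 1347, 1223 and 1415 CPM on the ketogenic diet, against 1580, 1367, 1477 and 1235 CPM on the high fat diet (-0.10, SE 0.13, adjusted p = 0.635).

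Library 4 of the untreated ketogenic group was above the mean of its mates in all 56 genes, by a median of 0.30 on the log2 scale, and had the group's lowest ribosomal RNA share (15.2%). Erythroid and plasma markers summed to 12.5 to 17.2 CPM on the ketogenic diet and 6.605 to 8.29 CPM on the high fat diet, and fibroblast markers to 64.0 to 113 CPM on the ketogenic diet and 109.7 to 132 CPM on the high fat diet. Of 7 leukocyte markers tested, CORO1A and LYZ rose on the ketogenic diet by 2.91 and 2.69 on the log2 scale (edgeR adjusted p = 0.00171 for each), with no overlap. None passed as lower, but 4 of the 7 estimates were negative, with a median log2 fold change of -0.21. AGER fell by 0.78 (edgeR adjusted p = 0.0240). The part of these markers was not tested. Without ketogenic library 4, 20 genes fell, whereas without ketogenic library 1 or 2 none did, and without ketogenic library 3 or untreated high fat library 1, 3 or 4 just 1 did. With ketogenic inhibitor libraries 1 and 4 left out of the shared model, 45 genes passed, and with just the libraries compared, 34. Without the libraries over 30% ribosomal RNA, a setting chosen after seeing the data, 0 passed and 28 had an unadjusted p under 0.05. These refit counts, too, are given without the share of all genes that each fit called.

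**Figure D4:**
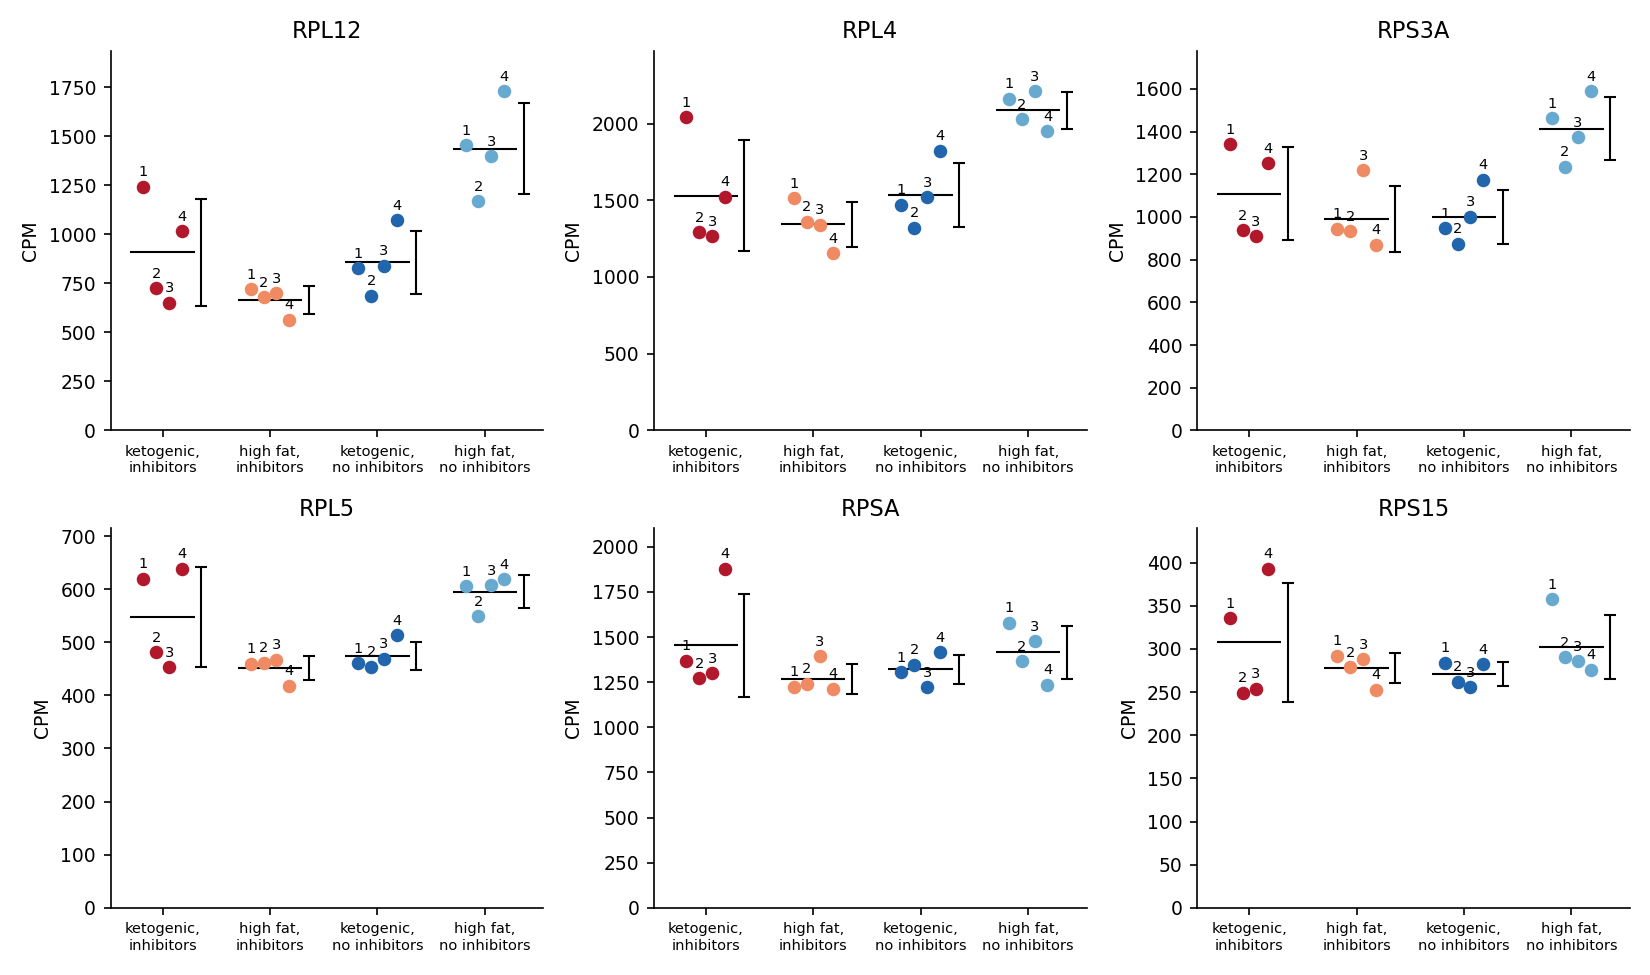
CPM of 6 genes in each library, with 1 point per library, its replicate number above it, a line at the group mean and a bar of 1 SD. RPL12, RPL4, RPS3A and RPL5 have their highest group mean in the untreated high fat group. In these genes ketogenic inhibitor libraries 1 and 4 lie above 2 and 3, and for RPL5 above every untreated high fat library. The 4 groups of RPSA and RPS15 overlap.

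Under inhibitors, the diets did not differ detectably in these genes. Of the 56, 0 passed in either direction (edgeR adjusted p under 0.05), against 0.169% of all genes. RPL5 and RPL12 had an unadjusted p under 0.05, and DESeq2 and limma voom also called 0. All 56 estimates were positive, with a median of 0.22 (0.02 over all genes), between 0.06 for RPL7 and 0.45 for RPL12. RPL12 had 1243, 724, 650 and 1016 CPM on the ketogenic diet, against 720, 678, 698 and 564 CPM on the high fat diet (SE 0.19, adjusted p = 0.326). RPL7 had 1660, 1200, 1140 and 1569 CPM, against 1289, 1225, 1663 and 1154 CPM (SE 0.14, adjusted p = 0.890). In both genes the 2 groups overlapped, and in 0 of 56 were they apart, against 3.45% of all genes higher and 3.68% lower. Without ketogenic inhibitor libraries 1 and 4 the median was -0.12.

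The inhibitor effect itself differed between the diets for 6 genes, a share near that of all genes called in either direction. In the test of that difference (edgeR interaction term) the effect was higher on the ketogenic than on the high fat diet for RPL12, RPS18, RPL27, RPL27A, RPL10 and RPL5 and lower for none, 10.7% of the 56, against 4.36% of all genes higher and 4.66% lower, 9.02% in all. All 56 differences were positive and 51 had an unadjusted p under 0.05, with a median of 0.62 on the log2 scale (0.03 over all genes). For RPL12 the effect was 0.09 on the ketogenic diet and -1.11 on the high fat diet, a difference of 1.197 (SE 0.27, edgeR adjusted p = 0.0187). For RPL5 it was 0.21 and -0.40, a difference of 0.61 (SE 0.16, adjusted p = 0.0296). The smallest difference was that of RPSA, 0.30 (SE 0.18, adjusted p = 0.291).

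RPS18, a head protein that faces the central protuberance of the large subunit, had 1688, 934, 948 and 1522 CPM in ketogenic inhibitor libraries and 982, 936, 1162 and 854 CPM in high fat inhibitor libraries. Untreated, it had 1038, 931, 1072 and 1327 CPM on the ketogenic diet and 1596, 1340, 1529 and 1715 CPM on the high fat diet, and the difference in effect was 0.87 (SE 0.26, edgeR adjusted p = 0.0441). RPL27, RPL27A and RPL10 differed by 0.83, 0.76 and 0.75 (adjusted p = 0.0443, 0.0459 and 0.0463). Ketogenic inhibitor libraries 1 and 4 were the high ones in each of these genes. Without both, the median difference was 0.28 and 2 genes passed, and the count was 1 without library 1 and 2 without library 4, but 28 without library 2 and 30 without library 3. Among the other groups it was 26 without untreated ketogenic library 4, and 1 without untreated ketogenic library 1, 2 or 3, high fat inhibitor library 2 or 4, or untreated high fat library 1 or 3. It was 3 without high fat inhibitor library 1 and 2 without untreated high fat library 4. Among marker genes, the effect on CORO1A, LYZ and KDR differed by -3.06, -2.81 and -1.52 (edgeR adjusted p = 0.00636, 0.00790 and 0.0164). Of the other marker lists, 1 erythroid and plasma marker was also lower in this test. AGER (1.59), 1 fibroblast marker and 1 melanoma lineage marker were higher. The part of these markers was not tested. The count of ribosomal protein genes was 0 with the ribosomal RNA covariate and 0 with scaling by library total, and RPL12 alone passed in all 16 fits without one library. Shares of all genes called in each refit are not given beside these counts.

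Within groups the genes moved together. Over the 16 libraries, deviations of log2 CPM from the group mean had a median pairwise Pearson r of 0.89 over 1540 pairs of genes, and 0.87 over the 14 libraries other than ketogenic inhibitor 1 and 4. All genes of a library share its depth and scaling, and these values are descriptions. RPSA followed the others least (median r 0.55), then RPLP0 and RPL4 (both 0.73). The within-group SD was 0.14 to 0.34 on the log2 scale, lowest for RPL5 and highest for RPS27.

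Counts of a few members are less certain than their depth implies. Ribosomal protein genes have many processed pseudogenes, and RSEM splits reads that match several genes. RPL10, RPL13A, RPL23, RPS10, RPS14 and RPSA had fractional counts in all 16 libraries, while 40 genes had whole counts throughout.

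Genes that work with ribosomal proteins moved in different directions on the high fat diet with inhibitors. The counts of each list stand against 20.6% of all genes higher and 21.7% lower in this comparison. Of 23 other ribosomal protein genes, 12 fell and 1 rose (median -0.47). RPL17, at the exit tunnel, had 612, 558, 722 and 512 CPM with inhibitors, against 1069, 845, 958 and 1041 CPM without (log2 fold change -0.70, edgeR adjusted p = 0.00365). The gene that rose was RPS26, with 190, 208, 237 and 217 CPM, against 123, 121, 118 and 152 CPM (0.73, adjusted p = 0.00124). Of 15 translation factors and related genes with TOP mRNAs, 12 fell and 0 rose (median -0.52). They included PABPC1, the poly(A) binding protein (-0.64, adjusted p = 0.0002), and NAP1L1, a histone chaperone (-0.92, adjusted p = 0.000125).

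More ribosome assembly genes rose than fell. Of 21 tested, 11 rose and 2 fell with inhibitors on the high fat diet (median 0.30). NOP58, a core protein of box C/D particles, had 103, 114, 127 and 124 CPM with inhibitors, against 68.3, 66.9, 65.2 and 71.9 CPM without (0.78, edgeR adjusted p = 0.00031). RRS1, which brings in the 5S particle, rose by 0.47 (adjusted p = 0.00044). Of 12 chaperones and importins of ribosomal proteins, 6 rose, among them GRWD1 (0.62) and TSR2 (0.65), the RPS26 chaperone, and 1 fell (median 0.24). Of 14 RNA polymerase I genes, 4 rose and 6 fell (median 0.15), and TAF1D fell by 1.65 on the log2 scale (adjusted p = 5.13e-06) and TAF1C by 0.34 (adjusted p = 0.00585). Of 14 genes that act on TOP mRNAs or the cap, 7 rose and 2 fell (median 0.29), among them EIF4G1 (0.84) up and TIA1 (-0.55) down.

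Of 7 ribosomal protein paralogs tested, RPL26L1 rose (0.39, edgeR adjusted p = 0.0343) and none fell, with RPL22L1 at 0.01. Of 14 genes of the MDM2 and p53 pathway, 6 fell and 2 rose (median -0.27). ZMAT3 and BBC3, both p53 targets, fell by 1.15 and 1.06 (adjusted p = 7.86e-05 and 0.00147). Of 12 genes used as readouts of ERK output, 2 rose and 3 fell (median 0.02), about the share called over all genes (42.3%). SPRED1, an inhibitor of the pathway, rose by 0.41 and PHLDA1 fell by 0.56 (adjusted p = 0.00284 and 0.00365).

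The other comparisons called fewer of these genes. With inhibitors on the ketogenic diet 2 assembly genes rose and no other listed gene of the translation machinery passed. Between the diets under inhibitors none did. Without inhibitors, on the ketogenic diet, 3 of 23 other ribosomal proteins and 5 of 15 TOP translation factors fell and none rose (medians -0.41 and -0.38), 4 of 14 polymerase I genes fell and 1 rose, 2 of 21 assembly genes fell and 1 of 12 chaperones and importins rose, where 5.51% of all genes fell and 7.99% rose. In the test of the difference between diets 3 and 4 of those 2 lists were higher and 0 lower (medians 0.63 and 0.52), as were 4 polymerase I genes and 3 of the MDM2 and p53 list, and NAP1L1 differed by 0.83 (edgeR adjusted p = 0.0203).

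**Figure D5:**
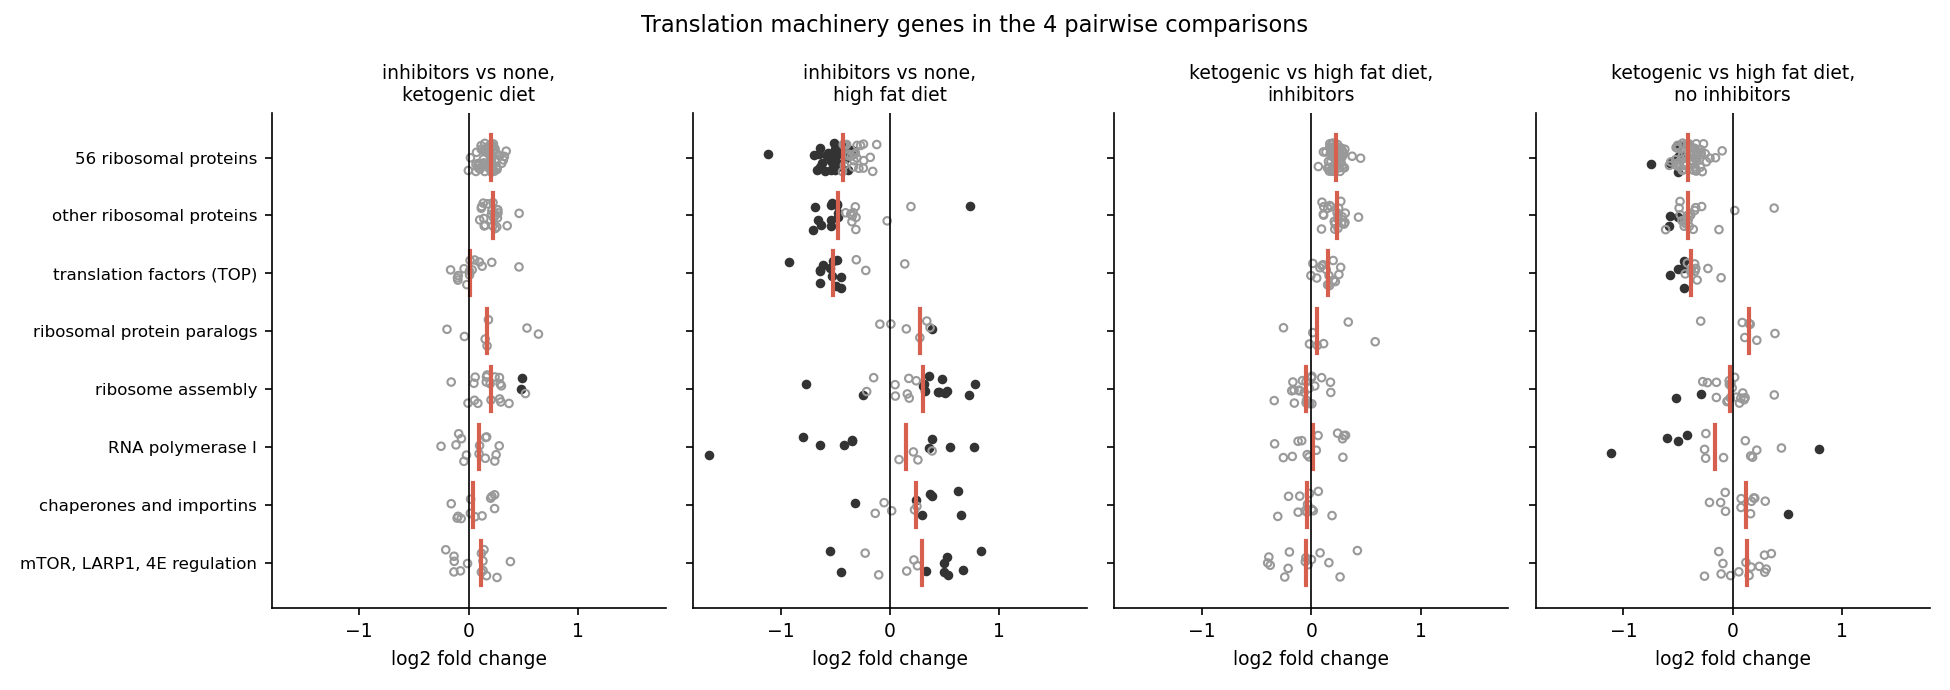
log2 fold changes of the 56 genes and of 7 other lists of the translation machinery in the 4 pairwise comparisons, with 1 point per gene, filled for an adjusted p under 0.05, spread vertically at random within its row, and a red bar at the list's median. On the high fat diet with inhibitors the ribosomal proteins and TOP translation factors lie to the left (medians -0.43, -0.47 and -0.52) and assembly genes mostly to the right (median 0.30).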

How the data were processed

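Poly(A) RNA of 16 libraries was sequenced. The authors deposited 1 table of RSEM expected counts per gene symbol, per the labels and the values. RSEM 1.2.15, Bowtie2 2.1.0 and the hg38 build appear in the submitters' processing notes. The sources used here do not give the strand setting, the annotation or how mouse reads were handled. Among the deposited values 13.0% were not whole (tolerance 1e-09), and all were rounded. Genes were kept by edgeR's filterByExpr, leaving 16012, and CPM used TMM-scaled library sizes. All groups entered 1 edgeR 4.0.16 quasi-likelihood model (robust, R 4.3.3), giving 4 pairwise comparisons and the difference between inhibitor effects. P-values were Benjamini-Hochberg adjusted over all genes tested with a threshold of 0.05, and the SE is the log2 fold change divided by the root of F. Each p-value measures the spread between these libraries. The method was tested on simulated data with 200 changed genes drawn from all genes tested. The pairwise tests recovered 0 to 2.99% of 1.25-fold changes, 22.4 to 28.4% of 1.5-fold changes and 57.6 to 69.7% of 2-fold changes. The interaction test recovered 0, 2.99 and 27.3% at those sizes. The simulation changed 200 genes drawn from all genes tested, whereas 42.3% of all genes passed with inhibitors on the high fat diet. Its rates therefore do not give the share of real changes found among the ribosomal protein genes, which was not tested. A gene that did not pass may still have changed. Alternatives were RLE scaling, library totals, DESeq2 1.42.0, limma 3.58.1 voom, no filter, a covariate, a replicate block and libraries left out. The smallest chi-square per degree of freedom between group mates was 35.3, so no libraries agreed within sampling noise.

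Genes described singly were those with the smallest p or extreme fold change in a comparison, the 3 highest and 3 lowest levels, genes with a textbook role, the 2 with the smallest p of each other list, and the 3 with the widest gap in a library that stood apart; RPL23, RPL27, RPL27A, RPL31, RPS2, RPS10, RPS13, RPS16 and RPS18 were added after their values were seen. The members and lists were chosen with earlier results of these data known. Gene positions are from GENCODE 29 and start windows from RefSeq (GRCh38.p14).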

Additional observations from a re-analysis of the deposited data

Results flagged for a closer look

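In 15 of 240 groups of 4 values, 1 library lay far from its 3 mates (the gap to the nearest mate over the group's range was above Dixon's 95% critical value), where chance flags about 1 in 20; 10 of the 15 were in the high fat inhibitor group. Library 3 of that group was the highest for RPL9 (941 CPM), RPL24 (758), RPS12 (655), RPS21 (549), RPS24 (1098), RPS25 (891), RPS27 (1129.6) and RPSA (1393). Library 4 of that group was the lowest for RPL5 (418) and RPS2 (1404). In the ketogenic inhibitor group library 4 was the highest for RPSA (1879) and for the summed structural RNAs (1239), and library 3 had the lowest ribosomal RNA share (4.098%). Untreated ketogenic library 4 was the highest for RPLP0 (2357), and untreated high fat library 1 for RPS2 (2907).

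The inhibitor effect differed between the diets, by edgeR's interaction test, for RPL12 (1.197 on the log2 scale, ketogenic minus high fat), RPS18 (0.87), RPL27 (0.83), RPL27A (0.76), RPL10 (0.75) and RPL5 (0.61). These were 10.7% of the 56 genes, against 4.36% of all genes higher and 4.66% lower, 9.02% in all. The count alone is thus near the share of all genes called in either direction. The differences of all 56 genes were positive. Of the 6 calls 1, that of RPL12, held in all 16 fits without one library.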

How the results depend on the processing

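No direction of a called value reversed. The gene counts in this paragraph are given without the share of all genes called in each fit. Of the 33 genes that fell with inhibitors under high fat feeding, 1 passed with library totals alone and 15 with the ribosomal RNA covariate, and leaving out 1 library gave 14 to 39. Of the 33, 14 passed in every such fit, and RPL12 passed in all alternatives run. For the untreated diets, 6 genes lower became 0 with library totals alone, 26 with DESeq2, 46 with limma voom, 3 with no filter, 2 with the covariate, 34 with just the libraries compared, 45 without ketogenic inhibitor libraries 1 and 4, and 0 (28 at an unadjusted p under 0.05) without libraries over 30% ribosomal RNA. Leaving out 1 library gave 0 to 20. For the difference in inhibitor effect, 6 genes higher became 0 with library totals alone (27 unadjusted), 10 with TMM computed without ribosomal genes, 27 with DESeq2, 12 with voom, 0 with the covariate, 2 without ketogenic inhibitor libraries 1 and 4, and 0 (43 unadjusted) without libraries over 30%. Leaving out 1 library gave 1 to 30. Also leaving out untreated high fat library 4, an alternative chosen like the 30% one after seeing the data, gave 42 and 2.

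Over all genes, calls on the ketogenic diet were 279, against 850 with DESeq2, 1463 with voom and 0 with the covariate. Between diets under inhibitors they were 27, against 330 and 1052. Library totals moved the median of all genes by 0.15 to 0.28. Deviations of log2 CPM from the group mean were correlated between libraries of different groups. Same-numbered libraries had r between -0.15 and 0.21, with 4 of 24 pairs over 0.1. Different-numbered libraries had r between -0.39 and 0.40. These values cannot exclude a factor shared by same-numbered libraries, on which the labels are silent. A replicate block gave 34, 13 and 10 genes in place of 33, 6 and 6. With 4 libraries a group, spread between libraries and not counting error limits these counts.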
